A study of Mus musculus with 6 samples.

Results

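Agt, Ace, Agtr1a, Agtr2, Atp6ap2, Enpep and Mme encode parts of the renin-angiotensin system, the peptide hormone pathway that regulates blood pressure and salt balance. They are 7 of 18193 genes with a probe set of their own in the platform annotation, and 11 of the 45037 non-control probe sets on these mouse arrays carry their symbols. The genes were chosen by their place in the pathway with the log2 differences between these same arrays already known, so those differences are given below as a description, without p-values. The tissue was whole fetal lung at stage E18.5, shortly before birth. Of the 6 animals, 3 were labelled Nfib f/f with Dermo1-Cre (Cre-labelled) and 3 were labelled Nfib f/f without Cre (control-labelled). Both groups thus carry the floxed Nfib gene, which encodes a nuclear factor I protein that binds DNA and regulates transcription. Dermo1-Cre produces Cre recombinase from the Dermo1 (Twist2) locus, which is active in mesenchyme, so the recombinase is directed mainly to mesenchymal cells, which are a part of the cells in these lungs. The labels call the animals biological replicates and name no litter, sex or processing day.

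Values are log2 signals from the MAS5 method, 1 array per animal. The brightest Nfib probe set read 11.30 ± 0.17 in Cre-labelled and 10.24 ± 0.07 in control-labelled lungs (SD, n = 3 each; log2 difference 1.05 ± 0.12 SE, limma adjusted p = 0.00487), a higher signal under the label of the deletion. Of the 7 Nfib probe sets 6 were tested, and 5 were higher by 1.04 to 1.14 and passed in limma, while the other read 9.45 ± 0.22 in Cre-labelled and 9.55 ± 0.13 in control-labelled lungs (SD, n = 3 each; -0.11 ± 0.13 SE, limma adjusted p = 0.708). No source used here places these probes inside or outside the floxed part, so Nfib checks nothing, and every direction below rests on the labels. Of 6 genes that mark lung, all were above the filter on low signals, among them the surfactant gene Sftpc and the mesenchymal factor genes Foxf1 and Tbx4. In whole lung, fewer cells of a type and less RNA per cell cannot be told apart.

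Angiotensinogen, the product of Agt, is the only known source of angiotensin peptides: renin cuts angiotensin I from it, and angiotensin-converting enzyme (Ace) turns angiotensin I into the active angiotensin II. Angiotensin II acts on type 1 receptors (Agtr1a is the main mouse gene), which drive vessel contraction and growth responses, and on type 2 receptors (Agtr2), which are most abundant in fetal tissues. The membrane peptidases aminopeptidase A (Enpep) and neprilysin (Mme) degrade or convert these peptides, and Atp6ap2 encodes the (pro)renin receptor, which is also an accessory subunit of the vacuolar proton pump. In lung, converting enzyme lines the capillary endothelium, where much circulating angiotensin I is converted.

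Upstream sequence is shown for 4 members because nuclear factor I proteins bind a palindrome of TTGGC and its reverse complement GCCAA. The sequences come from RefSeq (GRCm38.p6), hold the 250 bases before an annotated transcription start and run 5′ to 3′ on the gene's strand. Capitals mark each TTGGC or GCCAA, and a TATAA or its reverse complement TTATA where it begins 20 to 40 bases before the start (in Ace both overlap). Agt lies on the minus strand (chr8:124569707-124569956), the first of the 2 Ace windows on the plus strand (chr11:105967698-105967947), Enpep on the minus strand (chr3:129332750-129332999) and Atp6ap2 on the plus strand (chrX:12587509-12587758).
Agt: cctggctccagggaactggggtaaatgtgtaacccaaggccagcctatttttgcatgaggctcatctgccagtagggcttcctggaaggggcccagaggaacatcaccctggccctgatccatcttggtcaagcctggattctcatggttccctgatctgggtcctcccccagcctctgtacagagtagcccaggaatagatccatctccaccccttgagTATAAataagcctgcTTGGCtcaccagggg
Ace: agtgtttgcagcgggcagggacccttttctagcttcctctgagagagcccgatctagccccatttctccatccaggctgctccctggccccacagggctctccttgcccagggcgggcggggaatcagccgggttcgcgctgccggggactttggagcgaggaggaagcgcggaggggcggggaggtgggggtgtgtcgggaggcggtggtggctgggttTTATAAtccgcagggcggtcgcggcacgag
Enpep: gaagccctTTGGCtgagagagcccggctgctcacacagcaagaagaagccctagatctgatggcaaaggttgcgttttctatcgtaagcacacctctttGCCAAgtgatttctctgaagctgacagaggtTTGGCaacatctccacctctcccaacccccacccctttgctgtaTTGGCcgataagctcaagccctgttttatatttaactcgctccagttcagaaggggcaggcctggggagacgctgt
Atp6ap2: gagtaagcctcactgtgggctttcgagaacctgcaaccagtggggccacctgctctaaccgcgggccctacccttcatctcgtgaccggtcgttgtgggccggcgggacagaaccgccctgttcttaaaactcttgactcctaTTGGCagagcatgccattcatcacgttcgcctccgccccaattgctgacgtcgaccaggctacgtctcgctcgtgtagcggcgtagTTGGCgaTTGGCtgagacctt

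The Agt window holds 1 TTGGC, which begins 15 bases before the start, and a TATAA that begins 30 bases before it. Enpep holds 4 of these pentamers, and Atp6ap2 holds 3. The Ace window shown holds none but has a TATAA that begins 29 bases before the start, while a second Ace window, before a start inside the gene (chr11:105974939-105975188), holds 3. Agtr2 and the 3 windows of Mme hold none, and a TATAA begins 26 bases before the Agtr2 start. Agtr1a was not among the windows, so 6 of the 7 members were matched. In all, 4 of the 9 member windows hold the pentamer on either strand, against 41.5% of the 32851 windows of this length in the table. The full palindrome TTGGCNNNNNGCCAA, in which the pentamers are 5 bases apart, is in none of the member windows and in 0.0365% of all windows. TATAA on either strand, at any position in the 250 bases, is in 22.8% of all windows. Counted that way, Enpep also has a match, a TTATA that begins 51 bases before the start and is not in capitals. These are matches of letters only, and no binding was measured.

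Among the members the arrays separated most clearly in Agt, the precursor of the pathway. Its single probe set read 5.47, 5.72 and 5.0 in Cre-labelled lungs, against 7.19, 7.23 and 7.77 in control-labelled lungs. The highest Cre-labelled array lay 1.47 below the lowest control-labelled array. On the linear scale these are MAS5 signals of 44, 53 and 32 in Cre-labelled and 146, 150 and 219 in control-labelled lungs. The log2 difference was -2.00 ± 0.23 SE, so the Cre-labelled signal was 24.9% of the control-labelled signal. With 64 added to each linear signal, which damps differences between dim probe sets, the log2 difference was -1.13.

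Ace, the enzyme that makes angiotensin II, was lower by both of its probe sets. The brighter one read 5.65, 5.67 and 5.92 in Cre-labelled lungs, against 6.28, 6.51 and 6.68 in control-labelled lungs, a log2 difference of -0.75 ± 0.18 SE or a signal 1.68-fold lower. The groups were 0.37 apart at their nearest arrays. The other read 5.71, 5.55 and 5.15 in Cre-labelled and 5.74, 6.46 and 6.03 in control-labelled lungs (-0.61 ± 0.24 SE), where the nearest arrays were only 0.03 apart. The probe sets did not rank the Cre-labelled arrays alike: replicate 3 was the highest of its group by the first and the lowest by the second.

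**Figure D1:**
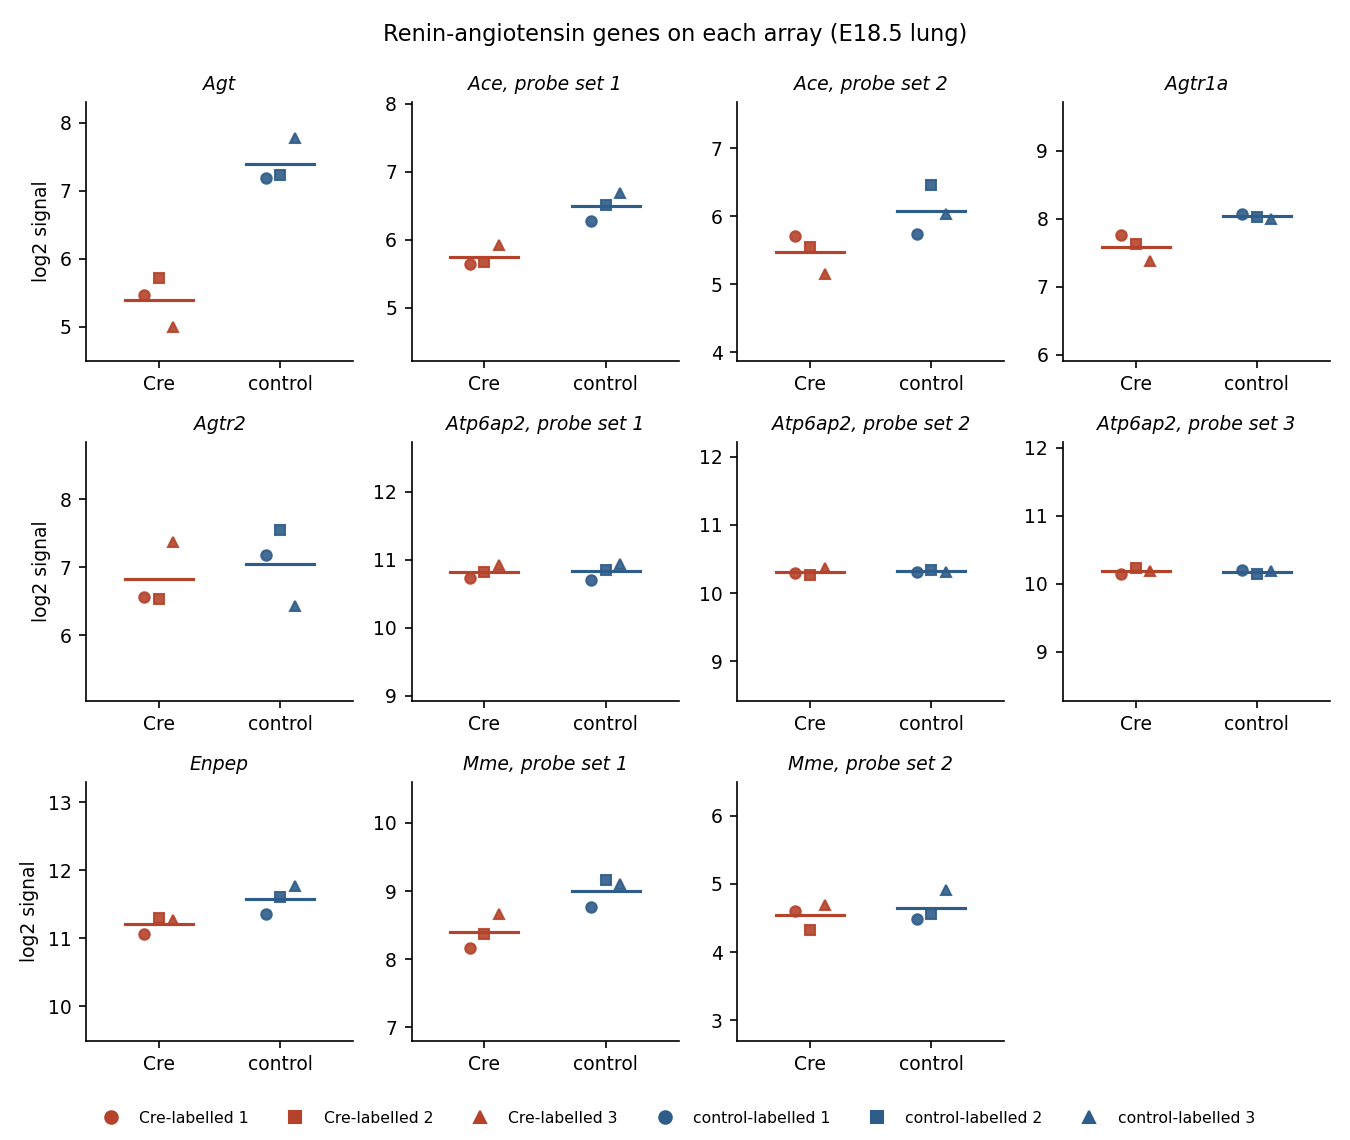
Log2 signal of the 11 probe sets of the 7 genes on each array, Cre-labelled on the left and control-labelled on the right of each panel; bars are group means (n = 3 each), symbols give the replicate number and every panel spans the same height. The groups stand apart in Agt, with 1.47 between their nearest arrays, and lie on each other in all 3 probe sets of Atp6ap2.

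The receptor genes differed in how far the groups separated. Agtr1a, the type 1 receptor, read 7.76, 7.62 and 7.37 in Cre-labelled lungs, against 8.07, 8.03 and 8.0 in control-labelled lungs, a log2 difference of -0.45 ± 0.12 SE. The control-labelled arrays were close together (SD 0.03, n = 3) and all lay above the Cre-labelled arrays (SD 0.20, n = 3). Agtr2, the type 2 receptor, read 6.56, 6.54 and 7.38 in Cre-labelled lungs, against 7.18, 7.55 and 6.43 in control-labelled lungs. Here each group had an array in the other's range, and the log2 difference of -0.23 ± 0.31 SE was smaller than the spread within either group (SD 0.48 and 0.57). Leaving out Cre-labelled or control-labelled arrays in turn moved the Agtr2 value between -0.54 and 0.02. No test of the difference between the receptors was made.

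Of the peptidases that clear or convert angiotensins, Mme, which encodes neprilysin, was lower by its brighter probe set, which read 8.16, 8.37 and 8.66 in Cre-labelled lungs, against 8.76, 9.16 and 9.10 in control-labelled lungs. Its log2 difference was -0.61 ± 0.15 SE, and the nearest arrays of the groups were 0.10 apart. A dimmer Mme probe set read 4.61, 4.33 and 4.69 in Cre-labelled lungs, against 4.49, 4.56 and 4.91 in control-labelled lungs (-0.11 ± 0.25 SE), close to the filter level of 4.0, and its groups overlapped. Enpep, which encodes aminopeptidase A, read 11.07, 11.30 and 11.27 in Cre-labelled lungs, against 11.36, 11.61 and 11.77 in control-labelled lungs. The Enpep groups were 0.06 apart at their nearest arrays, with a log2 difference of -0.37 ± 0.14 SE.

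Atp6ap2, the (pro)renin receptor, was level across the arrays. Its brightest probe set read 10.73, 10.82 and 10.92 in Cre-labelled lungs, against 10.70, 10.85 and 10.93 in control-labelled lungs, a log2 difference of 0.00 ± 0.11 SE. The other probe sets gave -0.01 ± 0.09 SE and 0.02 ± 0.09 SE. In all 3 the groups overlapped, and the SDs over replicates were 0.12 or less. The suffix of 2 of these probe sets marks probes that may also match other transcripts, and the third, which lacks it, differed by 0.02.

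**Figure D2:**
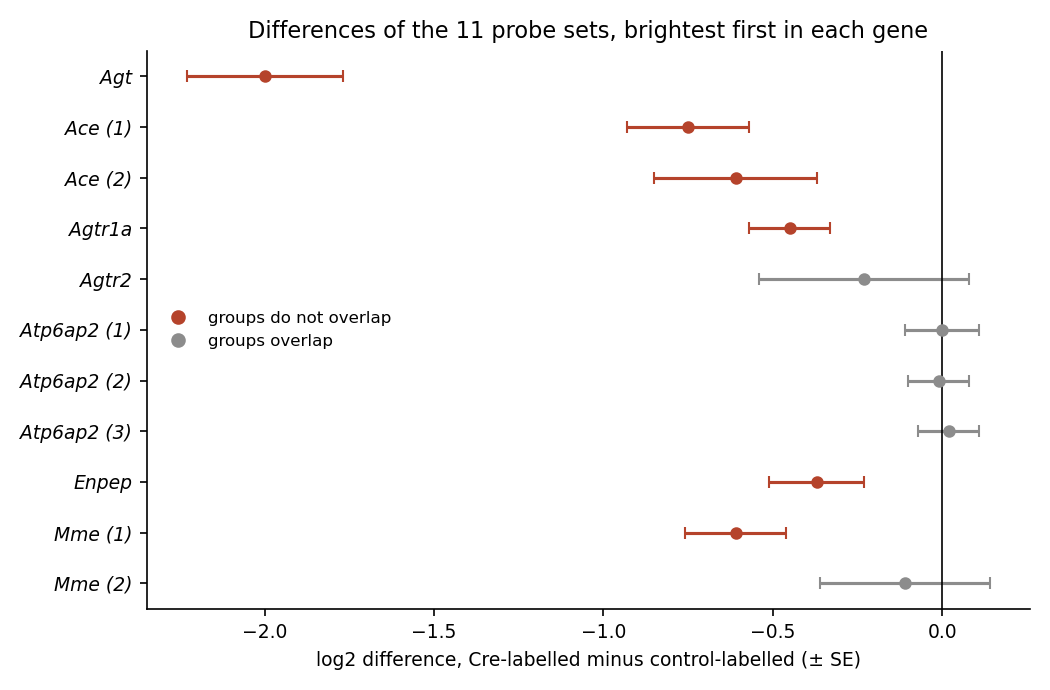
Log2 difference, Cre-labelled minus control-labelled, of each probe set (horizontal axis; bars are the SE of the limma fit on 3 against 3 arrays), with probe sets of a gene ordered from the brightest down. Points lie between -2.00 for Agt and 0.02 for the dimmest Atp6ap2 probe set, and colour shows whether the groups overlap.

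Over the 7 genes, each by its brightest probe set, the median log2 difference was -0.45, against 0.001 over all 27022 probe sets tested. All 11 member probe sets passed the filter on low signals. In 6 of the 11 every Cre-labelled array lay below every control-labelled array, which held for 12.8% of all tested probe sets, and in the other 5 the groups overlapped. In the limma fit across the whole array, 1 of the 11 passed an adjusted p of 0.05, that of Agt, where 2.16% of tested probe sets passed as lower and 3.56% in either direction. Since the members were picked with this contrast in view, nothing is read from these counts.

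The other genes of the pathway, from a list of 18, included none past the threshold. With 13 matched to a probe set and 9 of these above the filter, limma called none as higher or lower at an adjusted p of 0.05, where 4.96% of all genes tested by their brightest probe set passed; 1 of the 9 had an unadjusted p below 0.05. The array-wide share at an unadjusted p below 0.05 was not counted, so nothing is read from this count or from the like counts of the lists below. The share of 4.96% also applies to the genes that passed in those lists. The median log2 difference of the 9 was 0.10, and 2 of the 9 had a lower mean. Thop1, a peptidase that cuts angiotensin I, read 6.73, 6.62 and 6.63 in Cre-labelled lungs, against 6.10, 6.49 and 6.34 in control-labelled lungs (log2 difference 0.35 ± 0.16 SE, limma adjusted p = 0.255). Prcp, which removes the last residue of angiotensin II, read 8.86, 8.93 and 9.25 in Cre-labelled lungs, against 8.67, 8.62 and 8.95 in control-labelled lungs (0.27 ± 0.13 SE, adjusted p = 0.314). For Nln, a relative of Thop1, the log2 difference was 0.18 ± 0.14 SE (adjusted p = 0.521), with the opposite sign in its dimmer probe set (-0.35 ± 0.15 SE). Agtr1b, the other type 1 receptor gene of mice, read 5.0, 4.96 and 5.01 in Cre-labelled lungs, against 4.70, 5.15 and 4.23 in control-labelled lungs (0.30 ± 0.27 SE, adjusted p = 0.599). The remaining 5 tested, Cma1, Cpa3, Ctsa, Klk1 and Prep, had log2 differences from -0.11 to 0.10. Mas1, Mcpt4, Ctsg and Anpep averaged below the filter and were not tested. Of these Anpep, the aminopeptidase N gene, read 1.32, 2.85 and 1.47 in Cre-labelled lungs, against 3.82, 3.89 and 3.96 in control-labelled lungs, a log2 difference of -2.01 without overlap; it is named for these values. The groups of Mas1, Mcpt4 and Ctsg overlapped. The other 5 listed genes were not analysed here.

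Kinins are vasoactive peptides that converting enzyme and neprilysin also degrade. Of 9 listed genes of kinins and related peptides, 8 were matched and 4 tested, with a median log2 difference of -0.62, and 1 fell, Cpm, which encodes the membrane carboxypeptidase M. Cpm read 8.30, 8.52 and 8.15 in Cre-labelled lungs, against 9.0, 8.96 and 9.29 in control-labelled lungs (log2 difference -0.76 ± 0.13 SE, limma adjusted p = 0.0188). Its second probe set fell as well (-0.70 ± 0.14 SE, adjusted p = 0.0301). The call of the brighter one was lost without control-labelled replicate 1 (adjusted p = 0.0522) or 3 (0.0565), without Cre-labelled replicate 1 (0.0616) or 3 (0.0532), and without an intensity trend in the variance (0.081), over a range of 0.0146 to 0.081 in 15 alternative fits. The endothelin-converting enzyme gene Ece1 (-0.48 ± 0.15 SE, adjusted p = 0.108), the carboxypeptidase N gene Cpn1 (-0.80 ± 0.32 SE, adjusted p = 0.212) and the dipeptidyl peptidase gene Dpp4 (-0.07 ± 0.09 SE, adjusted p = 0.742) did not pass.

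None of the 7 angiotensin receptor partners passed in limma, with 2 at an unadjusted p below 0.05 and a median log2 difference of 0.07. Agtrap, whose product binds the type 1 receptor and promotes its internalisation, read 3.83, 4.91 and 4.99 in Cre-labelled lungs, against 5.65, 5.27 and 6.39 in control-labelled lungs (log2 difference -1.19 ± 0.38 SE, adjusted p = 0.122), but its dimmer probe set gave 0.02 ± 0.32 SE. Zbtb16, whose product binds the type 2 receptor, read 6.80, 6.27 and 6.36 in Cre-labelled lungs, against 7.40, 6.97 and 7.43 in control-labelled lungs (-0.79 ± 0.19 SE, adjusted p = 0.0533). In 15 alternative fits, of which 4 passed, its adjusted p was 0.0305 to 0.157. The dimmer Zbtb16 probe sets gave -0.61 ± 0.19 SE (adjusted p = 0.119) and 0.34 ± 0.45 SE (adjusted p = 0.737). Of the mineralocorticoid axis, through which aldosterone acts after angiotensin II, none of the 3 tested genes passed, with 2 at an unadjusted p below 0.05 and a median log2 difference of 0.28. The glucocorticoid-inactivating enzyme gene Hsd11b2 read 6.04, 5.21 and 5.96 in Cre-labelled lungs, against 4.71, 4.55 and 4.56 in control-labelled lungs (1.13 ± 0.26 SE, adjusted p = 0.0501; 0.0263 to 0.144 in 14 alternative fits, of which 4 passed). For the kinase gene Sgk1 the difference was -0.51 ± 0.13 SE (adjusted p = 0.0581), and for the mineralocorticoid receptor gene Nr3c2 it was 0.28 ± 0.27 SE (adjusted p = 0.633).

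The proton pump subunits with which the product of Atp6ap2 assembles were compared beside it. Of 7 listed, 6 were tested and limma called none, with 3 at an unadjusted p below 0.05. All 6 had a lower mean in Cre-labelled lungs, with a median log2 difference of -0.28. The nearest to the threshold were Atp6v1b2 (-0.39 ± 0.10 SE, adjusted p = 0.0557) and Atp6v1h (-0.40 ± 0.10 SE, adjusted p = 0.058). Their second probe sets gave -0.23 ± 0.11 SE (adjusted p = 0.281) for Atp6v1b2 and 0.01 ± 0.30 SE (adjusted p = 0.986) for Atp6v1h. Atp6ap1, the other accessory subunit gene, differed by -0.09 ± 0.11 SE (adjusted p = 0.711), beside 0.00 ± 0.11 SE for Atp6ap2.

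**Figure D3:**
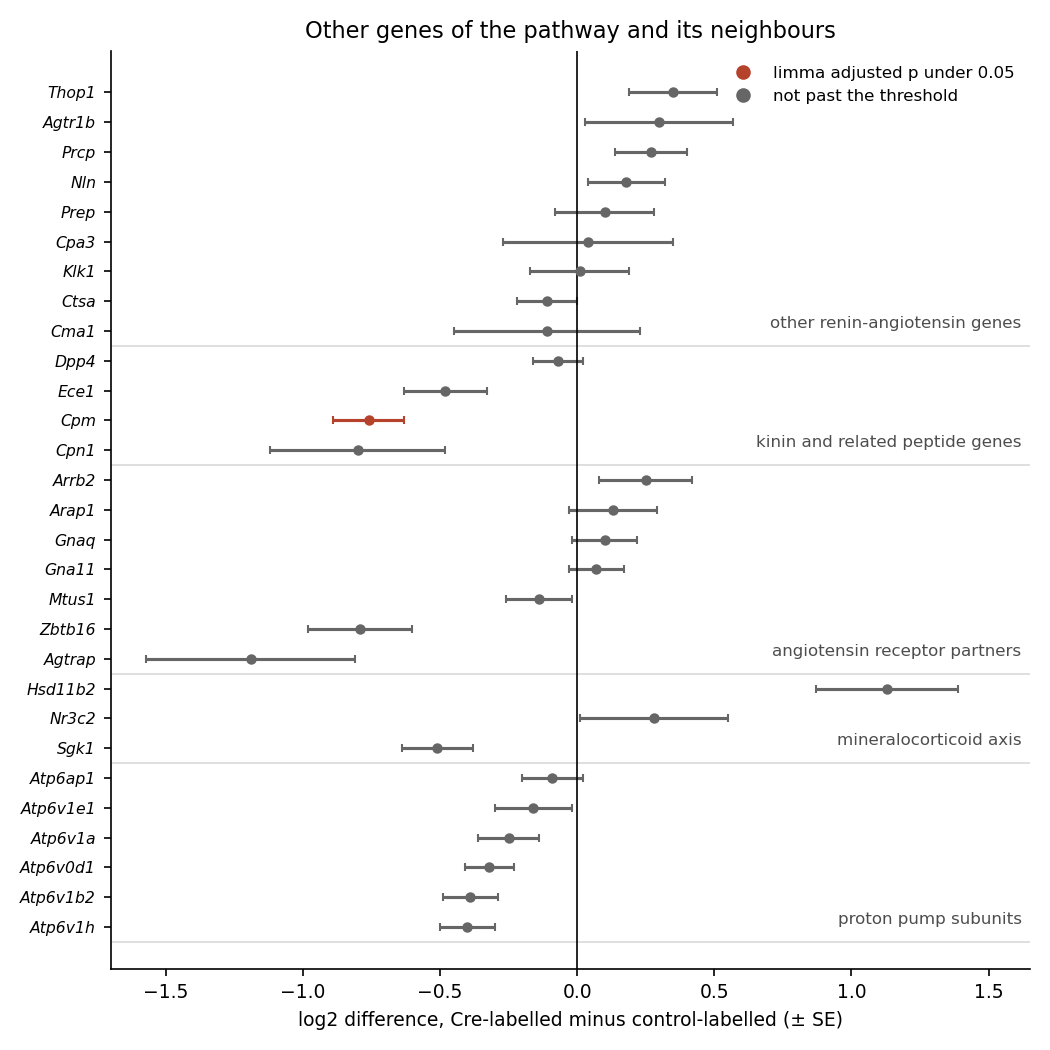
Log2 difference, Cre-labelled minus control-labelled, of the 29 tested genes of 5 lists around the members (horizontal axis; bars are the SE of the limma fit). Coloured is Cpm, at -0.76, the only one of these genes past an adjusted p of 0.05; the 9 other renin-angiotensin genes lie between -0.11 and 0.35.

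Marker genes of other cells and tissues were followed on the same arrays, as the mean log2 signal of each list. Of all genes tested by their brightest probe set, 4.96% passed in limma in either direction. No array-wide share was counted at an unadjusted p below 0.05, so nothing is read from the counts at that level. An unadjusted limma p of 0.0494, that of Thop1, had an adjusted p of 0.255, so such values were common across the array. Liver is the main source of Agt in the body. The 7 matched liver genes averaged 2.83 to 5.45 in Cre-labelled and 2.29 to 6.29 in control-labelled lungs, overlapping, and none of the 4 tested passed in limma, with 0 at an unadjusted p below 0.05. By replicate the liver list averaged 3.58, 2.83 and 5.45 in Cre-labelled and 2.29, 6.29 and 4.65 in control-labelled lungs. The 7 cardiac muscle genes, none of which passed in limma but 5 of which had an unadjusted p below 0.05, averaged 7.15 to 8.93 in Cre-labelled and 8.09 to 10.46 in control-labelled lungs, and all 7 had a lower mean in Cre-labelled lungs. The part of the liver and cardiac lists in the Agt difference was not tested.

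Of 8 endothelial genes, which mark the cells that carry converting enzyme, 7 had a lower mean in Cre-labelled lungs and none passed in limma, with 4 at an unadjusted p below 0.05. Their list averaged 9.22 to 9.65 in Cre-labelled and 9.71 to 9.85 in control-labelled lungs, without overlap, beside the lower Ace signal; its part in the Ace difference was not tested. The 4 alveolar capillary genes averaged 8.07 to 8.26 in Cre-labelled and 8.74 to 9.17 in control-labelled lungs, with a median log2 difference of -0.38. Of these Car4 fell (-2.14 ± 0.22 SE, limma adjusted p = 0.00387), while Gpihbp1 (-0.73 ± 0.24 SE, adjusted p = 0.129), Ednrb (0.05 ± 0.10 SE) and Plvap (-0.03 ± 0.15 SE) overlapped between the groups. The list of 6 alveolar type I cell genes averaged 8.96 to 9.14 in Cre-labelled and 9.86 to 10.37 in control-labelled lungs, with a median log2 difference of -0.82 and 4 that fell (Aqp5, Pdpn, Clic5 and Rtkn2). The 5 type II cell genes averaged 11.04 to 11.10 in Cre-labelled and 11.46 to 12.10 in control-labelled lungs, with a median log2 difference of -0.67 and 3 that fell (Sftpb, Sftpa1 and Abca3). The part of these lists in the lower signals of Agt, Agtr1a, Enpep and Mme was not tested. The list means of the 7 fibroblast genes overlapped (10.48 to 10.68 in Cre-labelled and 10.34 to 10.56 in control-labelled lungs). So did those of the 8 smooth muscle and pericyte genes (8.85 to 8.92 in Cre-labelled and 8.74 to 8.93 in control-labelled lungs). Single genes differed: Wnt2 rose and Higd1b fell, and 3 of the 7 and 2 of the 8 had an unadjusted p below 0.05. Without passing in limma, Pdgfra was lower (-0.33 ± 0.14 SE, adjusted p = 0.247) and Cnn1 higher (0.74 ± 0.24 SE, adjusted p = 0.136), both without overlap.

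Of the marker genes that passed, Clic5, Car4 and Wnt2 did so in all 6 fits that left out 1 array. Aqp5 and Sftpb lost the call without control-labelled replicate 3 (adjusted p = 0.0503 and 0.0509). Abca3 and Rtkn2 lost it in 2 of the 6 fits, Pdpn and Higd1b in 4 and Sftpa1 in 5, with a highest adjusted p of 0.139 for Sftpa1 and 0.0752 or less for the others. Their log2 differences in the fit on all arrays were -0.67 for Abca3, -1.56 for Rtkn2, -0.82 for Pdpn, -0.64 for Higd1b and -0.68 for Sftpa1.

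**Figure D4:**
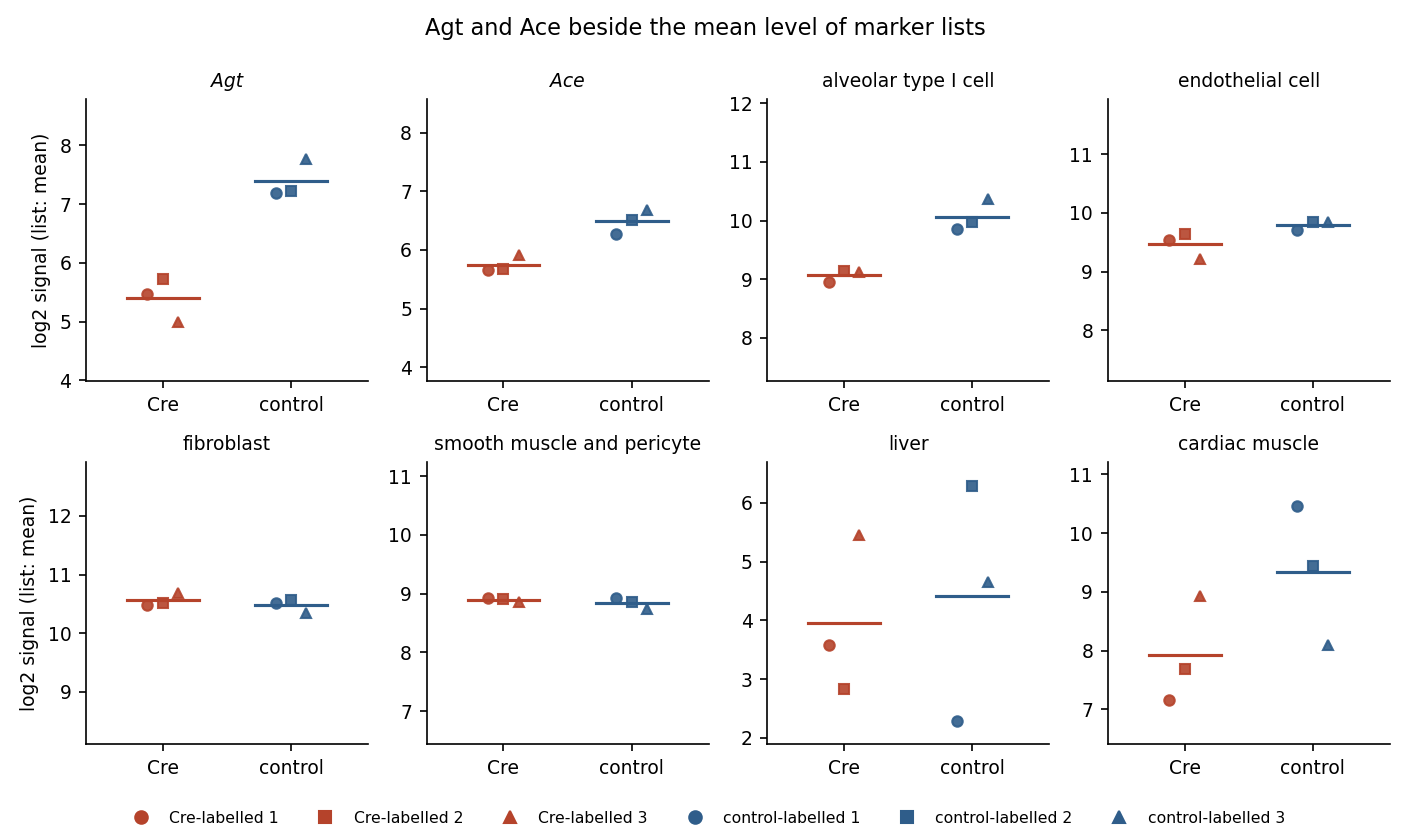
Log2 signal of Agt and Ace on each array beside the mean log2 signal of 6 marker lists, Cre-labelled left and control-labelled right; bars are group means (n = 3 each) and every panel spans the same height. The type I cell and endothelial lists are lower in Cre-labelled lungs without overlap, the fibroblast and smooth muscle lists overlap, and the liver and cardiac lists vary widely between arrays of a group.

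Genes with patterns most like each member were ranked among 12264 genes by Pearson's r with the member's brightest probe set over the 6 arrays. The arrays form both groups, so r follows the group difference where there is one and is given as a description. The largest of 12264 values over only 6 arrays is high for any pattern. Agtr2 and Atp6ap2, whose groups overlapped, also reached 0.995. The named genes are therefore not shown to vary with a member. For Agt the leading genes were the clock gene Per1 (r = 0.998), Tcp11l2 (0.997) and Stk36 (0.996). For Ace they were the collagen gene Col6a1 (0.997), Wnt3a (0.996) and the leukotriene synthase gene Ltc4s (0.992). Agtr1a was most like Eif2ak1 (0.997), Abca4 (0.996) and Flii (0.995). Enpep was most like Bscl2 (0.994), Dedd2 (0.992) and Cd14 (0.991), and Mme like Ahnak (0.993), the retinaldehyde dehydrogenase gene Aldh1a1 (0.989) and Scn7a (0.987). Agtr2, whose groups overlapped, was most like Ddx46 (0.995), Eef1a2 (0.983) and C5ar1 (0.971). For Atp6ap2 the leading genes were Gas5 (0.995), Arl1 (0.994) and Cep63 (0.991). No gene appeared for more than 1 member.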

How the data were processed

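Total RNA of 6 fetal lungs was hybridised to Affymetrix mouse arrays after biotin labelling, per the labels' protocols. The authors deposited log2 signals, and MAS5 and affy are the tools in the submitters' processing notes, with no version. Raised to the power of 2, the deposited values have a 2% trimmed mean of 150.04 to 150.05 on every array; other steps are not given in the sources used here. Array medians were 4.80 to 5.03.

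The values were used as deposited. Of 45101 probe sets, 64 controls were left out, and probe sets with a mean at or above the 40th percentile (4.0) were tested, 27022 in all. limma 3.58.1 in R 4.3.3 fitted them together (lmFit, then eBayes with trend, two-sided, with Benjamini-Hochberg adjustment, 4 residual and 5.32 prior degrees of freedom). The fit was also run on simulated data, with noise drawn independently for each probe set and array. Such data lack variation shared between probe sets, so that run cannot show how the fit behaves under it. Probe sets with several symbols were not named; the brightest probe set stood for a gene. The number of arrays limits the precision.

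The members and lists were chosen with earlier results of these data known. The text names all members, every list gene past the threshold in the 5 pathway lists and the cell lists described, the next 4 of the other renin-angiotensin genes, and the 3 genes most like each member (RIKEN, Gm, LOC and EST names left out). Other list genes that did not pass were named after their values were seen. Marker lists for mesothelial, mast, immune, erythroid, skeletal muscle and kidney cells are given with the closing values. Alternatives were other normalizations, offsets, filters, variance models, the replicate block, arrays left out and averaging over probe sets of 1 gene.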

Additional observations from a re-analysis of the deposited data

How the results depend on the processing

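Over 124 values under alternatives, 113 stayed within the limits set for a change: 1 SD between replicates for a member's difference, 1.5 times for a count. The count of probe sets past the threshold, 963, was 171 without an intensity trend, 2120 at an adjusted p of 0.10 and 308 to 499 without 1 array. With 64 added to the linear signal the log2 difference was -1.13 for Agt and -0.39 for Ace, and with the mean of its probe sets it was -0.36 for Mme. The count of other renin-angiotensin genes past the threshold was 0 under every alternative run. Agt, Ace, Agtr1a, Enpep and Mme kept their sign in all 13 alternatives for their difference. Agtr2 changed sign in 1 and Atp6ap2 in 6. Some of these alternatives could not move a member's value, though they are counted in the 13 and the 124. The replicate block leaves every difference as it was, since each replicate number has 1 array in each group. Averaging over probe sets changes nothing for Agt, Agtr1a, Agtr2 and Enpep, which have 1 probe set each. The labels do not give the replicate numbers as pairs, and the main fit did not take them as such. Arrays with the same replicate number deviated together with correlations of -0.014, 0.195 and 0.138. With the replicate block 1309 probe sets passed, against 963 without it. These values do not settle whether the numbers pair the arrays. Groups of 3 arrays limit what small differences can show, and MAS5 signals near the filter level are noisy.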

Other observations

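Further marker lists were read only to describe the arrays. Of 5 mesothelial genes, which mark the lining of the lung surface, 2 fell (Msln in all 6 fits that left out 1 array, Krt19 in 1 of them, with adjusted p up to 0.113), and the list averaged 7.29 to 7.94 in Cre-labelled and 8.02 to 8.28 in control-labelled lungs. Of 5 neutrophil genes 3 were tested and 2 fell (S100a8, in none of the 6 fits that left out 1 array, and Ngp, in 1 of them, with adjusted p up to 0.136), with list means of 5.35 to 6.03 in Cre-labelled and 5.91 to 6.23 in control-labelled lungs. No gene of the macrophage, mast cell, erythroid, skeletal muscle or kidney lists passed in limma, with 0, 0, 1, 1 and 1 at an unadjusted p below 0.05, in that order. The macrophage and erythroid list means overlapped. The kidney list was higher without overlap, at 3.51 to 3.96 in Cre-labelled and 2.93 to 3.31 in control-labelled lungs. Of its 4 matched genes 3 were below the filter, and the tested gene, Kap, differed by 0.79 ± 0.22 SE (limma adjusted p = 0.0793). The mast cell list shares the peptidase genes Cma1, Cpa3 and Mcpt4 with the other renin-angiotensin genes. It averaged 4.26 to 5.11 in Cre-labelled and 4.0 to 5.12 in control-labelled lungs. The skeletal muscle list averaged 4.32 to 4.57 in Cre-labelled and 3.64 to 8.53 in control-labelled lungs, the highest on control-labelled replicate 1.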
